A study of Mus musculus with 16 samples.

Results

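The myeloid fate transcription factors measured here are 10 genes picked by name for their roles in blood cell choice: Cebpa, Cebpb, Cebpd, Cebpe, Spi1, Irf8, Gfi1, Runx1, Myb and Id2. All 10 were found among the 29806 gene rows of the deposited tables, and all 10 were among the 14179 genes that passed the filter on low counts. RNA sequencing had been run on sorted mouse bone marrow cells in 16 libraries, 4 for each of 4 groups. The groups were haematopoietic stem cells (HSC) of wild-type control mice, HSC of Jak2V617F mice, Fcgr-negative MPP3 of the controls and Fcgr-negative MPP3 of the mutants. MPP3 are myeloid-biased multipotent progenitors, and the gate left out cells that carry Fc gamma receptors, as granulocyte-monocyte progenitors do. Jak2V617F is the activating kinase change of human myeloproliferative neoplasms. The promoter or Cre behind the allele, the age and sex of the mice, and any pooling of animals were not given in the sources used here. Per the labels the replicate number was also the batch.

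Myeloid cells arise when a small set of DNA-binding proteins overrides the stem cell and other lineage programmes. PU.1, the product of Spi1, and C/EBP alpha open myeloid genes, RUNX1 and MYB act earlier in stem and progenitor cells, and IRF8 and GFI1 pull progenitors towards monocytes or granulocytes. ID2 has no DNA-binding region of its own and blocks E proteins by pairing with them. The C/EBP proteins share a DNA-binding domain and act at different stages, with C/EBP epsilon late in granulocytes and C/EBP beta and delta in responses to stress and cytokines.

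Library totals ran from 33.4 to 41.5 estimated counts per library (in units of 1000000), with 14439 to 16522 genes detected. The labelled cell types carried their markers. The summed level of 7 HSC markers was 733 to 864 CPM (counts per 1000000 scaled by TMM) in control HSC and 496 to 569 CPM in mutant HSC, against 309 to 401 and 277 to 360 CPM in the control and mutant MPP3 groups. The summed level of 7 granulocyte-monocyte progenitor markers was 342 to 414 and 181 to 337 CPM in the HSC groups and 2438 to 5483 and 2354 to 3807 CPM in the MPP3 groups. Principal component 1 held 32.5% of the variance and parted HSC from MPP3. Mutant MPP3 replicate 3 lay nearest the controls on component 2, with a score of 10.4, and mutant HSC replicates 1 and 4 were the most alike pair (r = 0.971). Nothing in the labels ties the replicates to separate mice, so p-values cover only the spread between these libraries, which may be technical.

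The 3 promoters below are shown because Cebpa, Irf8 and Myb were the members higher in MPP3 than in HSC in both genotypes. Each is the 250 bases before the annotated start, from RefSeq on GRCm38.p6, read 5′ to 3′ along the gene's strand. Of the 10 members, 7 had an entry in the promoter table used.
Cebpa, chr7:35119043-35119292, plus strand: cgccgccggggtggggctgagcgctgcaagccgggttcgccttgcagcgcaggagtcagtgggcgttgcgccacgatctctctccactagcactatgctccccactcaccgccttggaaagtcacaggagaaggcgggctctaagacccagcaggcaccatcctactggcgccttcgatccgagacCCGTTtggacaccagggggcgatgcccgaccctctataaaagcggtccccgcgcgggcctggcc
Irf8, chr8:120736108-120736357, plus strand: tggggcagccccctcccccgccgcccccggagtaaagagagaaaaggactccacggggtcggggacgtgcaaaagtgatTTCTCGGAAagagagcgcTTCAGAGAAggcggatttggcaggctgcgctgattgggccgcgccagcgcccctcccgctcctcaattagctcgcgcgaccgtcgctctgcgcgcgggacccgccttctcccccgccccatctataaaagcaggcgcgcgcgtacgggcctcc
Myb, chr10:21160985-21161234, minus strand: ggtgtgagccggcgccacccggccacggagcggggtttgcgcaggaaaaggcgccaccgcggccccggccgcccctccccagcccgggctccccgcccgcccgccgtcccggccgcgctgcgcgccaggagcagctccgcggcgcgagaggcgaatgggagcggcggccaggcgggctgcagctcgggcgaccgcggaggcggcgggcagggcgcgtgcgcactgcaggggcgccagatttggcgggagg
Capitals in Irf8 mark both matches to TTCNNNGAA, the GAS motif that STAT proteins bind, at -171 to -163 and -153 to -145 from the start. On either strand, 7.02% of 32851 such windows held that motif. Capitals in Cebpa mark a match to the MYB motif AACNG, read on the other strand at -64 to -60, and 74.2% of windows held it. The Myb window had no match to any of the 10 motifs searched, which were those of STAT, C/EBP, MYB, RUNX, PU.1, GATA, GFI1, E-box, the interferon response element and the ETS-IRF composite. A match describes the letters and not a bound site, and no binding was measured.

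Levels between genes were compared per transcript length, in TPM (transcripts per 1000000, as deposited). Myb stood highest in all 4 groups, with mean TPM of 38.1 ± 4.13 in control HSC, 35.7 ± 4.0 in mutant HSC, 60.2 ± 1.69 in control MPP3 and 58.5 ± 3.52 in mutant MPP3 (SD, n = 4). In control HSC it was followed by Id2 at 24.7 ± 6.63, Runx1 at 16.7 ± 4.27 and Spi1 at 15.9 ± 0.843 TPM. The other 6 members, Irf8, Cebpb, Gfi1, Cebpe, Cebpa and Cebpd, had means of 0.168 to 2.55 TPM there.

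The order differed in MPP3. In control MPP3, Myb was followed by Spi1 at 19.6 ± 6.68, Irf8 at 16.8 ± 6.62, Runx1 at 15.6 ± 3.15 and Id2 at 13.1 ± 1.70 TPM. Cebpa at 6.18 ± 2.38 TPM and Cebpe at 5.96 ± 3.62 TPM came next, above Gfi1 at 2.14 ± 1.12 TPM. Cebpb and Cebpd stayed under 1 TPM on average in both MPP3 groups, at 0.642 and 0.637 TPM in controls and 0.466 and 0.972 TPM in mutants. Of the 9 steps between neighbours in this order, the library ranges overlapped in 7 in control HSC, 6 in mutant HSC, 7 in control MPP3 and 8 in mutant MPP3. The steps without overlap were that from Myb to the next gene in each group, from Spi1 to Irf8 in both HSC groups, from Irf8 to Cebpe in mutant HSC and from Id2 to Cebpa in control MPP3.

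**Figure D1:**
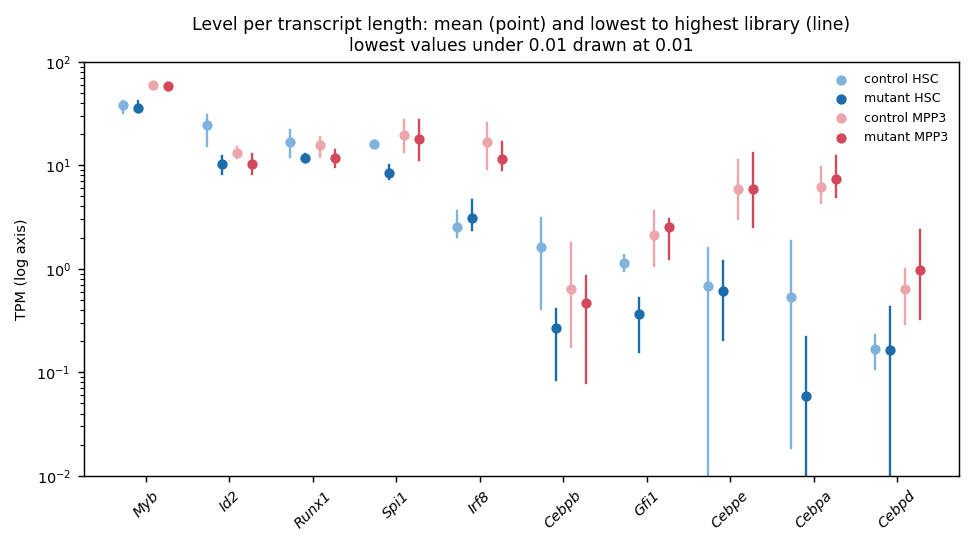
Level of each member per transcript length in TPM on a log axis, by group; points are means of 4 libraries and lines run from the lowest to the highest library, with values under 0.01 drawn at 0.01. Myb is highest in every group, and Irf8, Cebpe and Cebpa stand higher in the MPP3 groups than in the HSC groups.

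The step from HSC to MPP3 is a step from stem cell to myeloid-biased progenitor. In control mice 3 members were higher in MPP3 (Cebpa, Irf8, Myb) and 1 was lower (Id2), where a call means a Benjamini-Hochberg adjusted p under 0.05 in the quasi-likelihood test of edgeR. Over all genes tested, 13.6% were called in this comparison, 6.67% higher and 6.91% lower. In mutant mice 5 members were higher (Cebpa, Spi1, Irf8, Gfi1, Myb) and none lower, where 8.36% of all genes were called, 3.69% higher. No overlap between groups, with MPP3 above HSC, was seen for 5 members in controls and 6 in mutants, beside 9.25% and 6.14% of all genes. Cebpa and Cebpd had few counts in HSC and passed the filter through the MPP3 libraries where they were higher, so nothing is read from these counts against the background. These are bulk values, so fewer cells of a type and less RNA per cell cannot be told apart.

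Irf8 (ENSMUSG00000041515, GRCm38 chr8:120736358-120756694), the factor of monocyte and dendritic cell fate, moved from low to moderate levels. In control HSC its libraries held 2.94, 4.58, 4.29 and 5.79 CPM, and in control MPP3 29.6, 56.0, 20.0 and 31.5 CPM. Every control MPP3 library was above every HSC library, and the log2 fold change was 2.96 ± 0.38 (SE; edgeR adjusted p = 5.54e-05). In mutants it went from 4.95, 4.63, 11.7 and 4.04 CPM in HSC to 36.2, 23.7, 18.9 and 21.8 CPM in MPP3. These groups did not overlap either, and Irf8 rose by 1.99 ± 0.37 in log2 (edgeR adjusted p = 0.00194); without mutant HSC replicates 1 and 4 together it was 1.62 (edgeR adjusted p = 0.0522). Control MPP3 replicate 2, the highest for Irf8, also had the highest summed level of 7 monocyte and macrophage markers, 160 CPM against 43.3 to 55.4 CPM in the other 3 libraries, and the part of those markers in the Irf8 level was not tested. Another annotated gene of the same strand, Gm20388, overlaps the Irf8 locus and was listed at 0 to 62.0 CPM, with no shared exon bases.

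Cebpa (ENSMUSG00000034957, GRCm38 chr7:35119293-35121928), needed for the first granulocyte-monocyte progenitors, was near the limit of detection in HSC. Control HSC libraries held 2.75, 0.0269, 0.39 and 0.0250 CPM, from 99, 1, 15 and 1 estimated counts. Mutant HSC libraries held 12, 0, 0 and 1 counts. In MPP3 it stood at 14.2, 7.63, 5.94 and 7.48 CPM in controls and 18.0, 9.35, 6.88 and 9.22 CPM in mutants, above every HSC library. The log2 fold change from HSC to MPP3 was 3.47 ± 1.07 in controls (edgeR adjusted p = 0.0391) and 7.02 ± 1.31 in mutants (edgeR adjusted p = 0.00214). With so few HSC counts the fitted size depends on the prior count.

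Replicate 1 was the highest Cebpa library in each of the 4 groups. Without control HSC replicate 1 the control log2 fold change was 5.87, and adjusting for the replicate block gave 4.63 (edgeR adjusted p = 0.00295). Without control HSC replicate 2, 3 or 4, or without any 1 control MPP3 library, the control adjusted p lay between 0.0570 and 0.0995, and with only the groups compared it was 0.0697. In the mutants the call held in all 16 fits that left out 1 library. The log2 fold change in those fits ran from 6.61 to 9.82, on 0 to 12 counts per mutant HSC library, so its size stays imprecise.

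Myb (ENSMUSG00000019982, GRCm38 chr10:21124935-21160984), which sustains proliferating progenitors, had the tightest values. Control HSC held 103, 80.2, 92.0 and 94.1 CPM and control MPP3 154, 153, 144 and 144 CPM. Mutant HSC held 95.5, 84.2, 86.0 and 79.3 CPM and mutant MPP3 158, 152, 149 and 138 CPM. No HSC library reached any MPP3 library. The log2 fold change was 0.69 ± 0.09 in controls (edgeR adjusted p = 6.56e-05) and 0.79 ± 0.09 in mutants (edgeR adjusted p = 1.75e-05), a rise of about 1.61-fold and 1.73-fold.

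**Figure D2:**
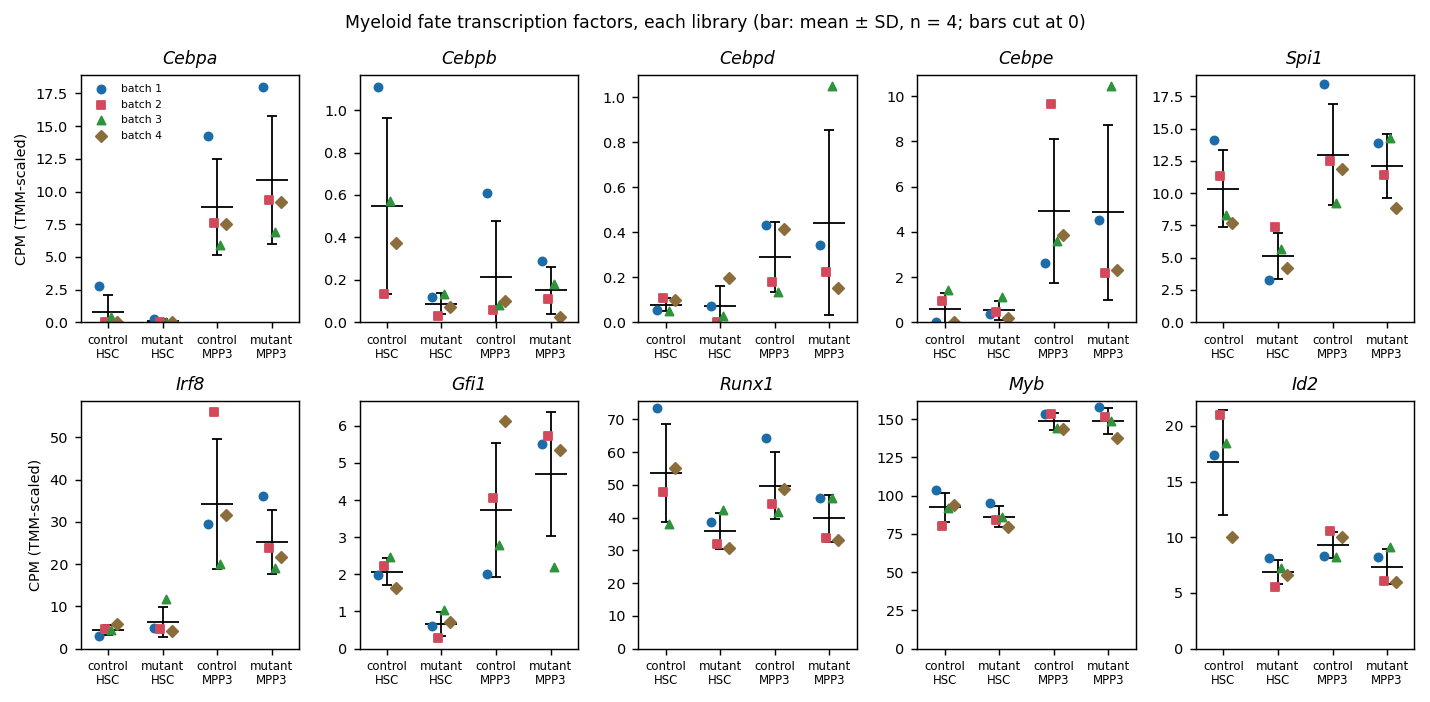
Level of each of the 10 members in CPM in every library, with batches by colour and shape; horizontal bars are group means and vertical bars ± SD (n = 4, bars stopped at 0). Myb, Irf8 and Cebpa are higher in all MPP3 libraries than in any HSC library. Id2, Spi1 and Gfi1 are lower in all mutant HSC libraries than in any control HSC library, and of these Gfi1 was not called (edgeR adjusted p = 0.0531).

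Spi1 (ENSMUSG00000002111, GRCm38 chr2:91082390-91115756) encodes PU.1, whose level tilts progenitors between myeloid and other fates. Control HSC held 14.1, 11.3, 8.33 and 7.69 CPM and control MPP3 18.4, 12.5, 9.21 and 11.9 CPM. The ranges overlapped, and the log2 fold change was 0.33 ± 0.29 (edgeR adjusted p = 0.545), although MPP3 was the higher in 4 of 4 batches. Mutant HSC held 3.25, 7.35, 5.67 and 4.24 CPM and mutant MPP3 13.9, 11.4, 14.2 and 8.87 CPM. In mutants the groups did not overlap and Spi1 rose by 1.24 ± 0.30 (edgeR adjusted p = 0.0126). Without mutant HSC replicate 4 the mutant adjusted p was 0.0503, and without batch 1 the log2 fold change was 0.98 (edgeR adjusted p = 0.0902).

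Gfi1 (ENSMUSG00000029275, GRCm38 chr5:107716657-107726036), a repressor that restrains stem cell division and later favours granulocytes, also had its lowest level in mutant HSC. Control HSC held 1.97, 2.21, 2.47 and 1.62 CPM and control MPP3 2.00, 4.05, 2.79 and 6.13 CPM, which overlapped (log2 fold change 0.85 ± 0.48, edgeR adjusted p = 0.282). Mutant HSC held 0.616, 0.281, 1.04 and 0.706 CPM and mutant MPP3 5.52, 5.72, 2.20 and 5.34 CPM. All mutant MPP3 libraries were above all mutant HSC libraries, and Gfi1 had a log2 rise of 2.82 ± 0.51 (edgeR adjusted p = 0.00160).

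Cebpe (ENSMUSG00000052435, GRCm38 chr14:54710360-54712174), a factor of late granulocyte maturation, was higher in every MPP3 library than in any HSC library of its genotype, and neither comparison passed in edgeR. Control HSC held 0, 0.943, 1.41 and 0 CPM and control MPP3 2.60, 9.64, 3.58 and 3.85 CPM. Mutant HSC held 0.379, 0.449, 1.12 and 0.170 CPM and mutant MPP3 4.54, 2.18, 10.4 and 2.33 CPM. The log2 fold change was 3.06 ± 1.12 in controls (edgeR adjusted p = 0.0827; with the replicate block 3.96 and adjusted p = 0.0253) and 3.20 ± 1.13 in mutants (edgeR adjusted p = 0.0998). DESeq2 gave adjusted p of 0.0155 in controls and 0.0149 in mutants. By limma-voom it was 0.0175 in controls, and by edgeR with only the groups compared 0.0237 in mutants. Cebpe was called in 3 of the 27 alternative settings in controls and in 2 of 27 in mutants. None of the 16 fits without 1 library called it in either genotype. The highest Cebpe libraries of 3 groups were also the highest for 7 neutrophil markers. Control MPP3 replicate 2 had a neutrophil sum of 295 CPM (the others 5.28 to 122), mutant MPP3 replicate 3 had 210.2 CPM (the others 4.02 to 14.0) and mutant HSC replicate 3 had 47.3 CPM (the others 2.04 to 12.6). In control HSC, Cebpe was highest in replicate 3 and the neutrophil sum in replicate 2, at 70.0 CPM. The part of neutrophil transcripts in the Cebpe levels was not tested.

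Id2 (ENSMUSG00000020644, GRCm38 chr12:25093799-25097140) was the member lower in control MPP3 than in control HSC. Its libraries held 17.4, 21.0, 18.5 and 10.0 CPM in control HSC and 8.34, 10.5, 8.25 and 9.98 CPM in control MPP3. Control HSC replicate 4 lay within the MPP3 range, and the other 3 HSC libraries lay above it. The log2 fold change was -0.85 ± 0.24 (edgeR adjusted p = 0.0257). Without control HSC replicate 1, 2 or 3, or control MPP3 replicate 1 or 3, the adjusted p lay between 0.0545 and 0.0887, and without batch 1 it was 0.140. In mutants the values were 8.10, 5.50, 7.19 and 6.62 CPM in HSC and 8.25, 6.09, 9.08 and 6.004 CPM in MPP3, where the log2 fold change was 0.10 ± 0.24 (edgeR adjusted p = 0.895).

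Runx1 (ENSMUSG00000022952, GRCm38 chr16:92601466-92826149) did not separate the cell types, with log2 fold changes of -0.11 ± 0.20 in controls (edgeR adjusted p = 0.797) and 0.15 ± 0.20 in mutants (edgeR adjusted p = 0.785). Cebpb (ENSMUSG00000056501, GRCm38 chr2:167688915-167690418) was at 0.0255 to 1.11 CPM over the 16 libraries, from 1 to 40 counts. Cebpd (ENSMUSG00000071637, GRCm38 chr16:15887286-15891031) was at 0 to 1.05 CPM. A count of 3 corresponded to 0.0711 to 0.0901 CPM in these libraries, so many values of both genes lay near that floor. Cebpb shares 312 exon bases with the antisense gene Tmem189 (6.47 to 20.0 CPM) and Cebpd 562 with Spidr (22.5 to 68.0 CPM). Strand handling was not given in the sources used here, so reads from these overlaps cannot be told apart. Shorter or unlisted antisense genes also overlap exons of Cebpa (51 bases), Gfi1 (101), Runx1 (106) and Myb (559).

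**Figure D3:**
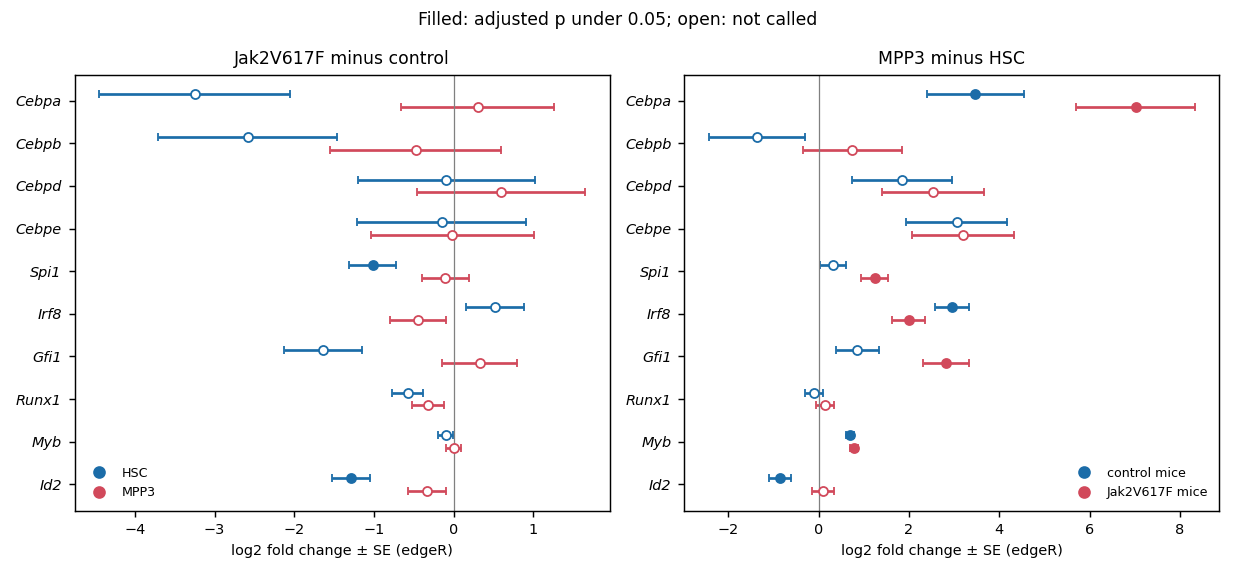
Log2 fold change ± SE of each member by edgeR, for mutant minus control in HSC and MPP3 (left panel) and MPP3 minus HSC in control and mutant mice (right panel); filled points had an adjusted p under 0.05. The left panel has filled points for Spi1 and Id2 in HSC, at -1.02 and -1.29, and the right panel has 9 filled points.

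Mutant and control HSC were compared to see what the kinase mutation alters in stem cells. Mutant HSC held less Id2 and less Spi1 transcript, and none of the 10 members was higher. These 2 lower calls of 10 stand beside 7.3% of all genes called, 2.74% lower. The groups did not overlap for 4 members (Cebpb, Spi1, Gfi1, Id2), all lower in the mutant, beside 7.6% of all genes. With the HSC groups alone in the fit, Cebpa, Cebpb and Cebpd did not pass the filter on low counts, so no support is drawn from that count.

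Id2 fell from 17.4, 21.0, 18.5 and 10.0 CPM in control HSC to 8.10, 5.50, 7.19 and 6.62 CPM in mutant HSC. All 4 mutant libraries were below all 4 controls, and the level was lower in 4 of 4 batches. The log2 fold change was -1.29 ± 0.24 (edgeR adjusted p = 0.00406), a level 0.41 times that of the controls. This call held in each of the 27 alternative settings, and without any 1 library the log2 fold change lay between -1.47 and -1.15. On the TPM scale Id2 went from 24.7 ± 6.63 to 10.2 ± 1.70 (SD, n = 4). Its mean passed from the second to the third place among the members, though its range overlapped that of Runx1 in both HSC groups.

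Spi1 fell from 14.1, 11.3, 8.33 and 7.69 CPM in control HSC to 3.25, 7.35, 5.67 and 4.24 CPM in mutant HSC. The lowest control lay just above the highest mutant, and the mutant was lower in 4 of 4 batches, by 0.55 to 2.10 on the log2 scale. The log2 fold change was -1.02 ± 0.29 (edgeR adjusted p = 0.0456). The effective length that Salmon gave Spi1 varied from 580 to 1089 bases between libraries. Per length the control libraries stood at 15.4, 17.1, 15.5 and 15.5 TPM and the mutant libraries at 7.33, 10.1, 8.88 and 7.80 TPM, so the ranges lay further apart on that scale. With effective-length offsets in the fit the log2 fold change was -0.89 (edgeR adjusted p = 0.0569).

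The Spi1 call lay close to the threshold. It held in 4 of the 16 fits that left out 1 library (control HSC replicate 4, mutant HSC replicate 2, control MPP3 replicate 1 or 3), and in the other 12 the adjusted p lay between 0.0507 and 0.141. Without batch 1 the log2 fold change was -0.64 (edgeR adjusted p = 0.283), and without mutant HSC replicates 1 and 4 together it was -0.67 (edgeR adjusted p = 0.394).

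Gfi1 stood at 1.97, 2.21, 2.47 and 1.62 CPM in control HSC and at 0.616, 0.281, 1.04 and 0.706 CPM in mutant HSC. The groups did not overlap and the mutant was lower in 4 of 4 batches, and its log2 fold change of -1.64 ± 0.49 just missed the threshold (edgeR adjusted p = 0.0531). DESeq2 gave an adjusted p of 0.0140, and edgeR gave 0.0329 without mutant HSC replicate 3 and 0.0405 without mutant MPP3 replicate 3. Only these 3 of the 27 alternative settings called Gfi1. Over the 16 fits without 1 library the edgeR adjusted p ran up to 0.133.

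Runx1 stood at 73.5, 47.9, 37.9 and 55.1 CPM in control HSC and 38.8, 32.0, 42.2 and 30.6 CPM in mutant HSC. Mutant replicates 1 and 3 lay within the control range and the other two below it, and the log2 fold change was -0.58 ± 0.20 (edgeR adjusted p = 0.0898). With the replicate block it was -0.56 (edgeR adjusted p = 0.0468), by DESeq2 the adjusted p was 0.0460, and without control HSC replicate 3 edgeR gave 0.0449. Only these 3 of the 27 alternative settings called Runx1. Without 1 library the edgeR adjusted p ran up to 0.301.

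Cebpb, with 40, 5, 22 and 15 counts in control HSC and 5, 1, 5 and 3 in mutant HSC, showed -2.59 ± 1.12 in log2 (edgeR adjusted p = 0.186). The highest mutant library, 0.133 CPM, lay just under the lowest control, 0.135 CPM. Cebpa, with the counts given above, had -3.25 ± 1.202 (edgeR adjusted p = 0.116), and -6.05 without mutant HSC replicate 1 (edgeR adjusted p = 0.0476). That was the only 1 of 26 alternative settings that called Cebpa. Without 1 library the edgeR adjusted p ran up to 0.755. The mutant libraries of Cebpa lay mostly at or under the floor of 3 counts, so these data set a low level rather than a measured fold.

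Irf8, Myb and Cebpe did not pass in HSC. Irf8 had 0.52 ± 0.36 (edgeR adjusted p = 0.453), and it was higher in mutants in 3 of 4 batches, by 0.02 to 1.43 on the log2 scale. In batch 4 it was lower by 0.51, and leaving out 1 library gave log2 fold changes of 0.08 to 0.71. The effective length of Irf8 varied from 1550 to 2808 bases between HSC libraries. Per length its means were 2.55 ± 0.723 TPM in control HSC and 3.11 ± 1.03 TPM in mutant HSC (SD, n = 4). Myb had -0.10 ± 0.09 (edgeR adjusted p = 0.594) and Cebpe -0.15 ± 1.07 (edgeR adjusted p = 0.963). Cebpd was at the floor in both HSC groups, and no fold is given for it.

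Other measures moved with genotype in HSC. Of the 7 HSC markers 3 were lower in mutant HSC and none higher, and their summed level lay below the control range in all 4 mutant libraries. Of the 7 granulocyte-monocyte progenitor markers 1 was lower and none higher. The 7 monocyte and macrophage markers summed to 5.67 to 15.2 CPM in control HSC and 2.22 to 6.33 CPM in mutant HSC, with 5 of the 7 under 1 CPM on average in the mutant, and none was called. The 7 neutrophil markers summed to 22.1 to 70.0 CPM in control HSC and 2.04 to 47.3 CPM in mutant HSC, also with none called. Of 5 megakaryocyte markers 2 were higher and none lower in mutant HSC, with sums of 734 to 1015 CPM in the controls and 942 to 1426 CPM in the mutants. Of 5 B cell markers, 4 of them tested, 1 was lower. Mitochondrial transcripts made up 1.45 to 2.03% of counts in control HSC and 0.924 to 1.37% in mutant HSC. The part of these differences in the levels of Id2, Spi1 and Gfi1 was not tested.

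**Figure D4:**
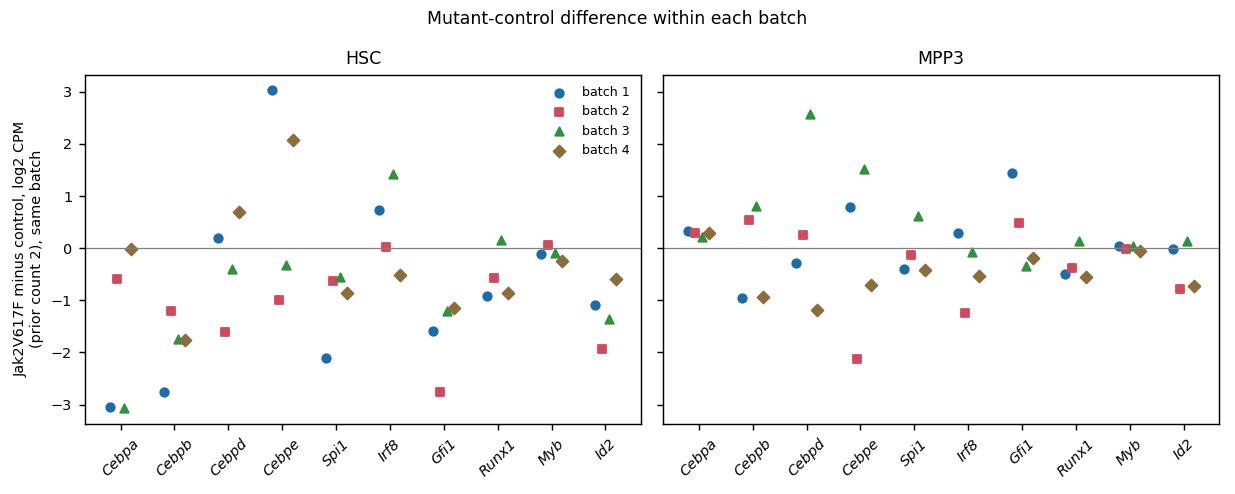
Mutant minus control difference in log2 CPM (prior count 2) within each of the 4 batches, for HSC (left panel) and MPP3 (right panel). In HSC the points of Cebpa, Cebpb, Spi1, Gfi1 and Id2 lie below 0 in 4 of 4 batches, while in MPP3 the points of 9 members lie on both sides of 0. The HSC points of Cebpa and Cebpb rest on few counts, and the Cebpa point of batch 4, at -0.01, compares 1 count with 1.

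In MPP3 the same mutation came with no called member. Of all genes 0.0635% were called by edgeR, and 13.8% had an unadjusted p under 0.05, as did none of the 10 members, and DESeq2 also called none. The groups overlapped for all 10 members, where 7.12% of all genes did not overlap. Id2, at 8.34, 10.5, 8.25 and 9.98 CPM in controls and 8.25, 6.09, 9.08 and 6.004 CPM in mutants, showed -0.33 ± 0.24 in log2 (edgeR adjusted p = 0.582). Spi1 had -0.10 ± 0.29 (edgeR adjusted p = 0.935), Gfi1 0.33 ± 0.47 (edgeR adjusted p = 0.843) and Runx1 -0.32 ± 0.20 (edgeR adjusted p = 0.511). Irf8 had -0.45 ± 0.35 (edgeR adjusted p = 0.638) and Myb 0.00 ± 0.09 (edgeR adjusted p = 1). Cebpa was higher in the mutant in 4 of 4 batches by 0.21 to 0.34 on the log2 scale, with 0.30 ± 0.96 over all libraries (edgeR adjusted p = 0.942). Erythroid markers summed to 385 to 768 CPM in control and 41.5 to 236 CPM in mutant MPP3. B cell markers summed to 106 to 173 and 68.5 to 105 CPM. T and NK cell markers summed to 11.2 to 16.3 and 1.84 to 5.24 CPM. Monocyte and macrophage markers summed to 43.3 to 160 and 32.3 to 42.02 CPM. These sums did not overlap, the other marker sums did, and no marker was called. The part of these differences in the member levels was not tested.

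Whether the mutant effect differed by cell type was tested directly, as MPP3 minus HSC. No member passed, beside 0.0423% of all genes by edgeR, and DESeq2 called none of the 10 either. An unadjusted p under 0.05 was found for 4 members, beside 6.93% of all genes. These were Gfi1 with a difference of 1.97 ± 0.68 on the log2 scale (edgeR adjusted p = 0.487), Id2 with 0.95 ± 0.34 (0.508), Cebpa with 3.55 ± 1.53 (0.658) and Spi1 with 0.91 ± 0.41 (0.699). Cebpa had few HSC counts and passed the filter through the MPP3 libraries, so nothing is read from this count of 4 against the background. Thus the mutant effects on Id2 and Spi1 were not shown to differ between the cell types. The comparisons of genotype in HSC and of cell type in mutants use the same 4 mutant HSC libraries, so the low Spi1 and Gfi1 values there enter both.

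The partners of these factors were followed in 11 further lists of genes. In mutant HSC the C/EBP regulators were 1 lower of 6 (median log2 fold change -0.27). The lower one was Trib2, which encodes an adaptor that marks C/EBP alpha for breakdown, at 36.8, 25.6, 14.1 and 24.1 CPM in control HSC and 5.66, 4.07, 4.16 and 5.04 CPM in mutant HSC (-2.41 ± 0.44, edgeR adjusted p = 0.00351). No mutant library came near the lowest control. In MPP3 Trib2 went from 11.9 ± 0.98 to 2.67 ± 1.95 CPM (SD, n = 4), again without overlap and short of the threshold (-2.15 ± 0.44, edgeR adjusted p = 0.0640). Its relative Trib1 stood at 5.60 ± 3.74 CPM in control HSC, against 4.18 ± 1.98 CPM in mutant HSC, and Cebpg, a C/EBP partner with no activating region, at 28.2 ± 10.1 and 26.5 ± 4.46 CPM. Ddit3, the stress-induced C/EBP relative CHOP, had -0.45 ± 0.27 in HSC (edgeR adjusted p = 0.361).

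Among 6 RUNX complex genes and relatives, 1 was higher and 3 were lower in mutant HSC (median -0.30). Runx3, a second DNA-binding member of the family, rose from 35.0 ± 7.83 to 53.1 ± 7.29 CPM (0.60 ± 0.15, edgeR adjusted p = 0.0226). The corepressor genes Runx1t1 and Cbfa2t3 fell, Runx1t1 from 18.7 ± 3.75 to 4.08 ± 1.86 CPM (-2.19 ± 0.42, edgeR adjusted p = 0.00481) and Cbfa2t3 from 180.2 ± 29.3 to 95.6 ± 23.8 CPM (-0.91 ± 0.19, edgeR adjusted p = 0.00815). The third lower gene, Runx2, is the bone factor of the family (-0.46, edgeR adjusted p = 0.0484). Cbfb, the shared partner subunit, stood at 27.7 ± 2.57 and 31.5 ± 5.27 CPM (0.19, edgeR adjusted p = 0.594). Runx1t1 was a transcript of HSC here: of the 8 MPP3 libraries, 6 listed it at 0 and the other two at 0.0245 and 0.0255 CPM.

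The lists of PU.1 and IRF partners (8 tested of 9, median -0.15), of GFI1 relatives and corepressors (5, median 0.16), of ID and E proteins (5, median -0.13), of megakaryocyte-erythroid factors (6, median -0.18) and of monocyte and macrophage factors (6, median -1.32) had no call in mutant HSC, beside the median of -0.06 over all genes. Irf4 was the gene not tested, at 0 in at least 2 libraries of every group. Id1 and Id3, the relatives of Id2, stood at 2.12 ± 1.92 and 1.26 ± 0.365 CPM in the controls and 3.90 ± 1.87 and 1.53 ± 0.646 CPM in mutant HSC, so neither was called lower as Id2 was. Gata1, the erythroid factor that PU.1 opposes, was at 47.8, 31.0, 55.1 and 63.1 CPM in control HSC and 76.4, 97.9, 104 and 93.8 CPM in mutant HSC. These groups did not overlap, and the log2 fold change of 0.92 ± 0.30 missed the threshold (edgeR adjusted p = 0.0717). Mybl2, the cell cycle relative of Myb, was the 1 called of 4 in its list and rose from 10.7 ± 2.51 to 22.3 ± 2.62 CPM (1.05 ± 0.23, edgeR adjusted p = 0.0112). Of 6 lymphoid factors tested of 7 (median -0.56), Gata3 (-0.80 ± 0.19, edgeR adjusted p = 0.0148) and Notch1 (-0.99 ± 0.24, edgeR adjusted p = 0.0201) fell.

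Genes that these factors are known to switch on were listed as receptors and as granule or effector genes. In control mice 4 of 6 receptor genes were higher in MPP3 and none lower (median 1.35, beside -0.01 over all genes), and in mutants again 4 of 6 (median 1.56). Csf1r, the receptor of macrophage colony-stimulating factor and a PU.1 target, rose from 2.47 ± 0.926 to 20.3 ± 2.57 CPM in controls (3.03 ± 0.37, edgeR adjusted p = 3.01e-05). Flt3, a receptor of early progenitors, rose by 2.89 ± 0.17 (edgeR adjusted p = 1.13e-08) and Csf2rb, the shared chain of the interleukin-3 and granulocyte-macrophage factor receptors, by 1.53 ± 0.23 (edgeR adjusted p = 0.000194). Of 10 granule and effector genes 6 were higher in MPP3 in controls (median 3.21) and 7 in mutants (median 4.14, or 3.76 with Cybb at its bound), with none lower. Ms4a3 rose from 1.23 ± 0.796 to 30.9 ± 25.1 CPM in controls (4.64 ± 0.55, edgeR adjusted p = 2.24e-05), and Ctsg, the gene of cathepsin G, was at 0 in 3 of 4 control HSC libraries and at 39.8 to 97.0 CPM in control MPP3.

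In mutant HSC, 1 of the 6 receptor genes and 2 of the 10 granule and effector genes were lower, and none was higher (medians -0.41 and -0.79). Csf2ra, the binding chain of the granulocyte-macrophage factor receptor, fell from 42.4 ± 8.06 to 24.8 ± 6.60 CPM (-0.77 ± 0.21, edgeR adjusted p = 0.0345). Prtn3, the gene of proteinase 3, fell from 349 ± 27.9 to 218 ± 60.0 CPM (-0.68 ± 0.17, edgeR adjusted p = 0.0193). Cybb, the oxidase subunit of phagocytes, was at 0.0555, 3.48, 1.59 and 0 CPM in control HSC and at 0 in all 4 mutant HSC libraries. It passed the test (edgeR adjusted p = 0.0412), on counts that came mostly from control HSC replicates 2 and 3, and no fold is given. No gene of the 11 lists was called in mutant against control MPP3 or in the difference of the mutant effect. Of 6 megakaryocyte-erythroid factors, 2 were called lower in control MPP3 than in control HSC and 3 in mutant MPP3 than in mutant HSC (medians -0.45 and -0.60). None was called higher. Klf1 of this list was not called, yet it stood at 5.38, 10.7, 9.84 and 22.1 CPM in control HSC. In control MPP3 it stood at 29.3, 48.8, 39.2 and 69.0 CPM, without overlap. Its mutant means were 11.1 ± 5.18 CPM in HSC and 9.79 ± 12.0 CPM in MPP3. Gata2, a stem cell and mast cell factor, fell by 1.19 ± 0.19 in control MPP3 relative to HSC (edgeR adjusted p = 0.000384). Gata1 was lower in mutant MPP3 than in mutant HSC, at a log2 difference of -2.42 ± 0.31 (edgeR adjusted p = 5.99e-05), and Gfi1b, the relative of Gfi1 in platelet and red cell precursors, with -1.52 ± 0.25 (edgeR adjusted p = 0.000583). Among PU.1 partners and relatives, Ikzf1 (the lymphoid and myeloid factor Ikaros) was higher (0.70 ± 0.11, edgeR adjusted p = 0.000327) and the ETS factor gene Fli1 lower (-0.69 ± 0.09, edgeR adjusted p = 5.41e-05) in control MPP3 than in control HSC.

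**Figure D5:**
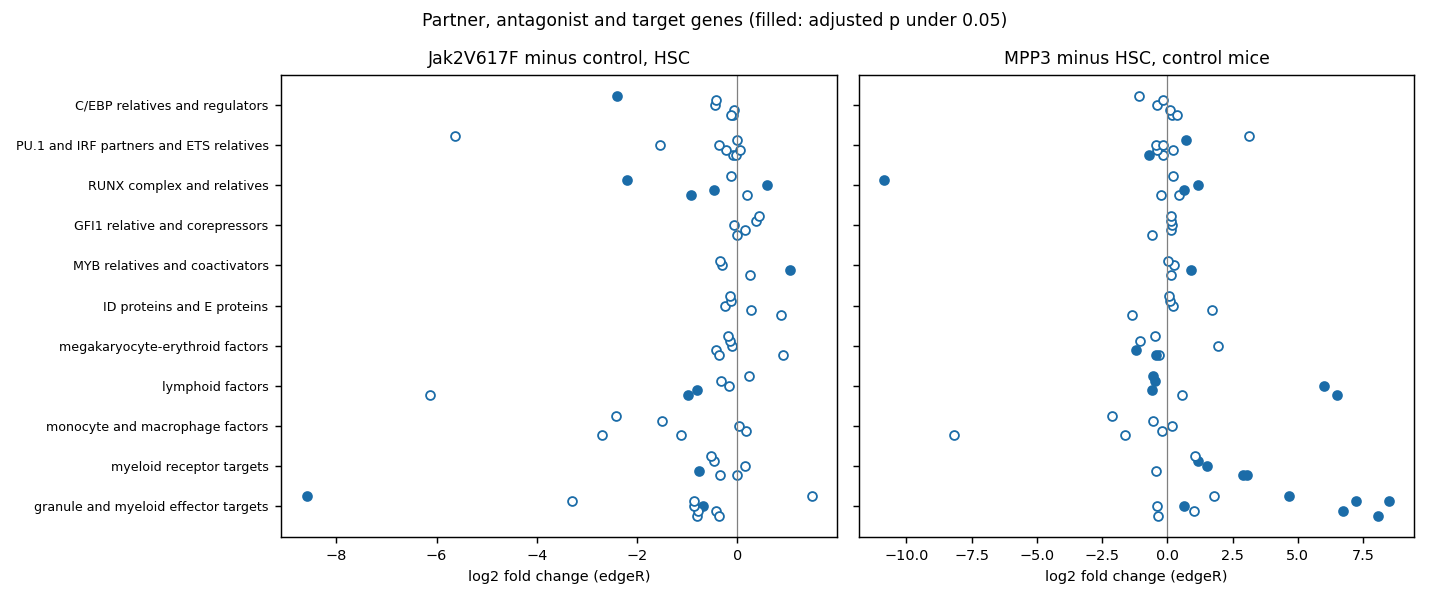
Log2 fold change by edgeR of each tested gene in the 11 lists of partners, relatives, opposing factors and targets, for mutant minus control HSC (left panel) and MPP3 minus HSC in control mice (right panel); filled points had an adjusted p under 0.05, and values beyond about 5 in either direction come from genes with few or no counts in 1 group. The receptor and granule lists hold 4 and 6 filled points on the right side of 0 in the right panel, and the RUNX list holds 1 higher and 3 lower in the left panel.

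For each member called in at least 1 comparison, the genes with the most similar profile were those with the smallest root mean square difference of centred log2 CPM over the 16 libraries, among 9742 candidates. All points of such a profile share the libraries and their depth. Myb was followed most closely by Ssh2 (0.11), Taldo1 (0.18) and Kmt5a (0.18), where the standard deviation of Myb itself was 0.40. Id2 was followed by Tceal1 (0.29), Xbp1 (0.30) and Pkd1 (0.30), beside a standard deviation of 0.58. Xbp1, the factor of the IRE1 branch of the unfolded protein response, had means of 41.4 and 19.1 CPM in the control and mutant HSC groups and 25.6 and 18.0 CPM in the MPP3 groups, where Id2 had 16.7, 6.85, 9.28 and 7.35 CPM. Spi1 was followed by Gpr171 (0.35), Tcn2 (0.38) and Emid1 (0.38), beside a standard deviation of 0.67. Irf8 was followed by Ccl5 (0.52), Tent5a (0.54) and Lat2 (0.54), beside 1.39, and Gfi1 by Zfp54 (0.54) and Fcer1g (0.64), beside 1.23. Cebpa had the largest differences, from Rab44 (1.33), Epha7 (1.42) and Bpifc (1.54). Its standard deviation, 3.32, was also the largest, so these differences do not rank the closeness of the profiles.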

How the data were processed

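RNA was measured in 16 libraries of sorted mouse bone marrow cells. Per the labels' protocols, 7000 to 10000 cells were used per sample, cDNA came from 10 ng of RNA (integrity number above 8.0) by a SMARTer kit, amplification took 12 to 15 cycles, and paired reads had 150 bases. The submitters' processing notes name cutadapt 4.0, FastQC, HISAT2 and Salmon with GRCm38 (mm10), with roles, settings and strand handling not given in the sources used here. Each deposited table holds the authors' estimated counts from Salmon, not normalized. Per the file headers it holds TPM as well (per effective length, scaled to each library) and the effective length in bases.

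Of 31716 table rows, the 29806 gene rows were used and the 1910 rows named as transcripts were left out. Symbols and coordinates came from GENCODE M21 and matched 29727 rows. Counts were rounded to whole numbers. CPM used TMM-scaled library sizes. TPM was used to compare genes and was not tested. The filter of edgeR 4.0.16 in R 4.3.3 kept 14179 genes, which were fitted in 1 quasi-likelihood model with a coefficient per group over all 16 libraries. An adjusted p (Benjamini-Hochberg, over all genes tested) under 0.05 was a call, and SE was the log2 fold change over the square root of F. The edgeR fit was tested on simulated counts with known folds set in mutant HSC only, in genes above a minimum level. That test does not bear on low-count genes or on the other comparisons.

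The members, lists and tests were chosen with earlier results of these data known. Genes named besides the members were up to 3 of each list and comparison with the smallest adjusted p, fixed partners and antagonists, and the 3 genes nearest in profile with a mean of at least 5 CPM. One gene that this rule names is not reported here.

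The batch, given by the labels as the replicate number, pairs the libraries. Over 24 comparisons of same-numbered libraries, the correlation of deviations from the group means lay between -0.03 and 0.16, and in 17 the best match had the same number. No replicate pair differed by as little as sampling noise. Alternatives were DESeq2 1.42.0, limma-voom (limma 3.58.1), the replicate block, RLE size factors, no filter, effective-length offsets, removal of haemoglobin, mitochondrial and ribosomal RNA genes, transcript rows added, only the groups compared, mutant HSC replicates 1 and 4 left out, and each library left out in turn. Leaving out batch 1 was chosen after seeing the data.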

Additional observations from a re-analysis of the deposited data

Results flagged for a closer look

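In each of the 40 combinations of member and group, the highest or lowest of the 4 libraries was compared with the others by the gap to its neighbour over the whole range. A gap share above Dixon's critical value for 4 values marked a library that stood far from the rest. For normally distributed values chance gives this in about 1 in 20 groups. CPM from few counts, as for Cebpa and Cebpb, need not follow that rate. Cebpa was marked in control HSC for replicate 1, at 2.75 CPM, and in mutant HSC again for replicate 1, at 0.284 CPM. Cebpb was marked in control MPP3 for replicate 1, at 0.608 CPM. Irf8 was marked in mutant HSC for replicate 3, at 11.7 CPM. Gfi1 was marked in mutant MPP3 for replicate 3, the low one of its group at 2.20 CPM.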

How the results depend on the processing

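Counts of called members are given here for 27 alternative settings. In mutant against control HSC the 2 calls became 1 with batch 1 left out (a setting chosen after seeing the data), effective-length offsets, limma-voom, mutant HSC replicates 1 and 4 left out, no filter, or only the groups compared; Id2 was the gene that remained. These settings called 1.77% to 8.88% of all genes, beside 7.3% in the main fit. DESeq2 called 4 of the 8 members to which it gave an adjusted p, beside 14.3% of all genes. The replicate block called 3, beside 9.83%. Leaving out 1 library gave 1 to 2, beside 4.18% to 9.74%. Where 2 were called, the gene beside Id2 was Spi1, Runx1, Cebpa or Gfi1. In MPP3 against HSC the 4 control calls ranged from 2 to 4 without 1 library, beside 9.65% to 15.1% of all genes (13.6% in the main fit). Cebpa was also lost with only the groups compared, and Id2 without batch 1. The 5 mutant calls ranged from 4 to 5 without 1 library, beside 6.33% to 8.12% (8.36% in the main fit). They were 3 without mutant HSC replicates 1 and 4, beside 5.17%. Mutant against control MPP3 and the difference of the mutant effect had 0 calls in each setting. With the replicate block 5 members were called in each comparison of cell types, beside 15.8% of all genes in controls and 9.59% in mutants. In the comparison of genotype in MPP3 and in the difference it called 0. No member called without the block was lost.

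Over all genes, mutant against control HSC had 1035 calls (1674 by DESeq2, 266 without mutant HSC replicates 1 and 4), MPP3 had 9 (388 by DESeq2, 82 with the block, 209 without mutant MPP3 replicate 3) and the difference 6 (77 by DESeq2). No called member changed sign. Of 1026 uncalled member values recomputed, 39 had the opposite sign and stayed uncalled. The causes were not tested. Cebpa, Cebpb and Cebpd had too few counts in HSC for their folds to be precise.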
